A study of Homo sapiens with 25 samples.

Results

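The genes described here are 10 regulators of the G2 and M phases of the cell cycle that lie outside the structural families of mitosis: MELK, PBK, PIMREG, SAPCD2, DEPDC1, CDCA2, CDCA3, CKS2, CKS1B and ARL6IP1. They were selected by name, as kinases, CDK-binding proteins and adaptors of the G2/M program, out of 28395 genes in the count table. All 10 passed the filter on low counts, which kept 14658 genes. The 10 names were chosen with results of these same libraries in view. Their differences between groups are therefore a description of each gene against the spread between libraries, and no count over the 10 is evidence about the program as a whole.

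RNA was counted in 12 libraries of A549, a long-established carcinoma line of human lung. The growth protocol calls the cells mAID-TRRAP, while their genotype label reads WT. The account here takes the protocol's name, in which an auxin-inducible degron (mAID) sits on TRRAP, a scaffold subunit of histone acetyltransferase complexes, and the ligand 5-Ph-IAA is used to degrade the tagged protein. The 4 groups had 3 libraries each. The both-drug group received 1 µM 5-Ph-IAA for 6 h plus 3 h of prexasertib, which inhibits CHK1, a kinase of the DNA damage checkpoint. The 5-Ph-IAA group received only the degrader, the prexasertib group only the CHK1 inhibitor, and the DMSO group neither. All groups, DMSO included, have the same cell line labels and went through 20 h in 2 mM thymidine and 4 h of release, which the series text describes as S phase. The labels do not say whether the tagged line is 1 clone, and a group of untagged cells given 5-Ph-IAA was not analysed here, so loss of TRRAP and other actions of the ligand cannot be told apart. Doses of prexasertib are given in conflicting units and are not used. Another 13 samples of the series, made by CUT&RUN, were not analysed here.

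Genes that are needed for mitosis are kept low in early cell cycle phases and switched on as cells approach G2. The MuvB core, a protein complex with the DNA-binding subunit LIN54, sits at their promoters on a short element called CHR. It first represses them with the pocket proteins and later activates them with B-MYB (MYBL2) and FOXM1. NF-Y, which binds CCAAT boxes, works beside it. CHK1 restrains CDK1 during S phase, and its inhibition releases CDK1 activity early. Many of the 10 genes are known to peak with this program. MELK and PBK are protein kinases, CKS1B and CKS2 are small proteins that dock on CDKs, PIMREG, SAPCD2, DEPDC1, CDCA2 and CDCA3 are adaptors or regulators without enzyme activity of their own that is firmly established, and ARL6IP1 is a membrane protein of the endoplasmic reticulum.

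Promoter windows were taken from the RefSeq table (GRCh38.p14) for the 7 of the 10 genes that had a full window of 300 bases there. PBK, PIMREG and CDCA2 had none, and no gene was left out for its letters. The windows are shown because the short elements that MuvB and NF-Y are known to bind can be read in them directly. Each line runs 5′ to 3′ on the gene's strand, from 100 bases before the annotated start to 20 bases after it. Capitals mark a CHR-type hexamer (TTTGAA or TTCGAA, in either orientation, so TTCAAA is the first of them on the opposite strand) and an NF-Y-type pentamer (CCAAT, or ATTGG on the opposite strand). No hexamer overlaps a pentamer in these lines.
CKS1B, chr1:154974581-154974700, + strand: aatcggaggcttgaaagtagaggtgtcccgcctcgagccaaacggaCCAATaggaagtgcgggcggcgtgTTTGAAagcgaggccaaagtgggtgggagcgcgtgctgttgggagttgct
CKS2, chr9:89311095-89311214, + strand: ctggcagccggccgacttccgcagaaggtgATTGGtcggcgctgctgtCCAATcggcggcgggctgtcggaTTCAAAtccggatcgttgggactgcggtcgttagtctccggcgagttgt
DEPDC1, chr1:68497063-68497182, - strand: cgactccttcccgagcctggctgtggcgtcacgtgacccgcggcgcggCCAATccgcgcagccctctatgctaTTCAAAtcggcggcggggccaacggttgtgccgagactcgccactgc
SAPCD2, chr9:137070538-137070657, - strand: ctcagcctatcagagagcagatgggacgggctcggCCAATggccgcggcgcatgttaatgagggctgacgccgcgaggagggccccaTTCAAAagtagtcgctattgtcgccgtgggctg
CDCA3, chr12:6851267-6851386, - strand: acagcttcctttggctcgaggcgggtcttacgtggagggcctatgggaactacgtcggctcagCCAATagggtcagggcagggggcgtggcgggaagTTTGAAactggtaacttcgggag
MELK, chr9:36572795-36572914, + strand: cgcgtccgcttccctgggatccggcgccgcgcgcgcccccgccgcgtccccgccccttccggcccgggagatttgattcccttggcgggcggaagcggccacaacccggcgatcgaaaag
ARL6IP1, chr16:18801530-18801649, - strand: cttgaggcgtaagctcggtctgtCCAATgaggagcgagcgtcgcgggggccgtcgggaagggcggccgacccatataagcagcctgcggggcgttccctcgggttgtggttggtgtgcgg

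Of the 7 genes, 5 held both elements, and the CHR-type hexamer lay downstream of the CCAAT pentamer in each. Its first base was at -30 in CKS1B, -29 in CKS2, -27 in DEPDC1, -13 in SAPCD2 and -3 in CDCA3, counted from the annotated start. The nearest CCAAT lay 24 bases before it in CKS1B, 23 bases in CKS2 and 25 bases in DEPDC1, first base to first base. The spacing was wider in SAPCD2, at 52 bases, and in CDCA3, at 34 bases. MELK held neither element in its whole window of 300 bases. ARL6IP1 has 2 annotated starts. Neither of its windows held the hexamer, and the one printed held CCAAT at -77 and ATTGG at -200, the second outside the printed stretch. Over 35116 windows of the table, 16.4% held the hexamer, 34.6% held the pentamer and 6.38% held both. In the shorter stretch from 100 bases before to 50 after the start the shares were 7.37%, 21.3% and 1.86%, and the counts of the 7 genes were the same. A match in the letters is not a binding site, and the absence of one says only that these letters are not in this window.

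**Figure D1:**
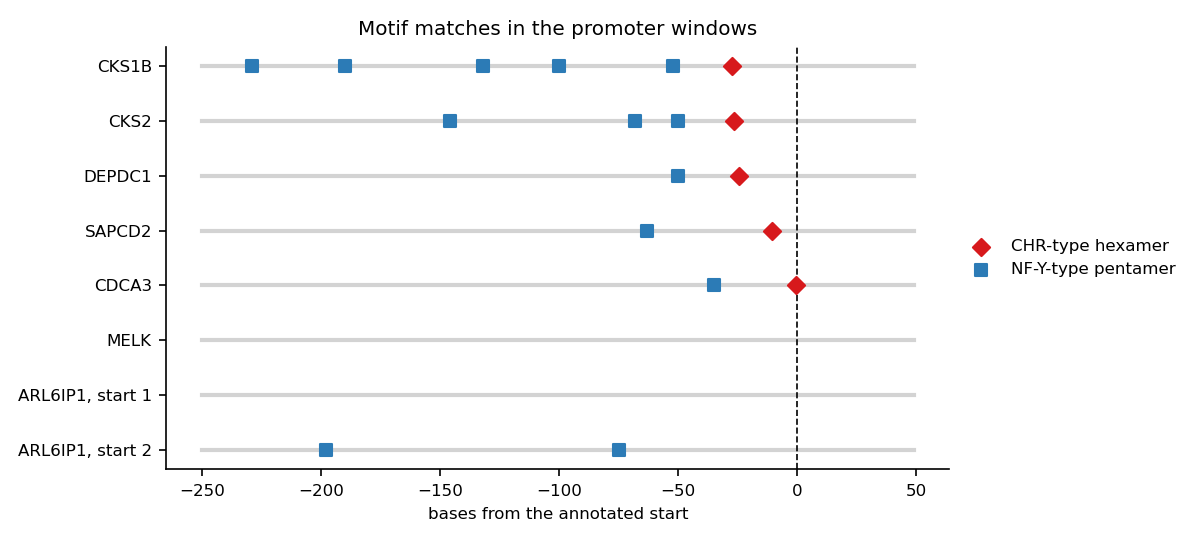
Positions of CHR-type hexamers (red diamonds) and NF-Y-type pentamers (blue squares) in the 8 promoter windows of 7 genes; the x axis is the distance of the motif's middle from the annotated start (dashed line), in bases. In CKS1B, CKS2 and DEPDC1 the hexamer sits at nearly the same distance from the start, with a pentamer 23 to 25 bases before it.

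Total counts per library ran from 10830048 to 17789482. The libraries numbered 3 stood apart from those numbered 1 and 2 in every group. Deviations from the group means correlated at 0.53 to 0.63 among libraries numbered 3, against 0.22 to 0.35 among those numbered 1 and 0.26 to 0.40 among those numbered 2. Of the 12 libraries, 8 correlated best with one of their own number. Deviations within a group cancel, so a shift of the libraries numbered 3 alone also makes those numbered 1 and 2 deviate together. A separate pairing of those numbered 1, or of those numbered 2, is therefore not shown. A fit that takes the number as a block was run as well. Its value is given where it changed a call named here, or moved a count of the 10 genes or of a list by over 1.5 times. Because the degron acts on TRRAP protein, TRRAP mRNA is no check on the group labels. That mRNA had 116, 99.7 and 141 CPM with both drugs, 129, 149.5 and 119.5 CPM with 5-Ph-IAA, 76.5, 84.2 and 63.6 CPM with prexasertib and 79.2, 75.9 and 94.5 CPM with DMSO. CPM are counts scaled to library size, here with the TMM factor. The keratins KRT7, KRT8 and KRT18 of epithelial cells averaged 3015, 3251 and 2114 CPM, but EPCAM averaged 0.807 CPM, and SFTPB, a surfactant gene of alveolar cells, was at 0. Of 10 epithelial markers, 6 reached 1 CPM, and their sum was 7602 to 8828 CPM with both drugs, 7499.6 to 8280.4 CPM with 5-Ph-IAA, 7847 to 9301 CPM with prexasertib and 7969.6 to 9596 CPM with DMSO. Of 16 markers of blood, fibroblast, endothelial and neuronal cells, 6 reached 1 CPM (CD68, COL1A1, SNAP25, SYT1, RBFOX3 and TUBB3), while DCN was at 0 and PTPRC and CD3E averaged 0.0665 and 0.00611 CPM. Their sum was 366 to 397 CPM with both drugs, 359 to 374 CPM with 5-Ph-IAA, 436 to 452 CPM with prexasertib and 437 to 467 CPM with DMSO. TUBB3, a tubulin that many cultured cells express, averaged 284 CPM of that sum. KRT7 (-0.30 ± 0.069), KRT8 (-0.34 ± 0.1) and TUBB3 (-0.61 ± 0.079) fell with 5-Ph-IAA against DMSO (log2 fold changes of the edgeR fit). Marker levels and sums were scaled by library size alone, they moved with 5-Ph-IAA, and their part in the results was not tested.

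All 10 genes fell with 5-Ph-IAA. Against DMSO the 10 log2 fold changes ran from -1.53 (PIMREG) to -0.38 (PBK), with a median of -0.73, where the median over all genes tested was 0.01. Of all genes tested, 12.2% fell and 9.65% rose in that comparison, or 1787 and 1414 genes. That balance turned with the scaling: 986 fell and 3018 rose with library size alone, and 1370 fell and 2065 rose with upper-quartile scaling. The replicate block also gave all 10 genes lower, where 23.6% of all genes fell and 19% rose. CKS1B lost its call in 9 alternatives. Among them were library size alone and upper-quartile scaling, each of which left 9 of the 10 genes lower. With prexasertib alone 7 of the 10 rose and none fell, from 0.53 (CDCA3) to 1.00 (PIMREG) in the genes that rose. Of all genes tested, 2.36% rose and 2.37% fell with prexasertib, or 346 and 347 genes. Library size alone gave 295 and 496. Single libraries also weighed on that count, which became 183 and 123 without prexasertib library 1, 183 and 149 without prexasertib library 2, 207 and 158 without DMSO library 1 and 227 and 190 without DMSO library 2. For 5-Ph-IAA against DMSO, 1254 genes fell and 876 rose without 5-Ph-IAA library 1, and 1248 fell and 844 rose without 5-Ph-IAA library 2. The counts of the 10 genes restate how they were chosen. The 3 of the 10 that did not pass the test with prexasertib were MELK, PBK and CKS1B. RNA from a whole culture was measured, so fewer cells in G2 or M and less of each RNA per cell cannot be told apart.

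**Figure D2:**
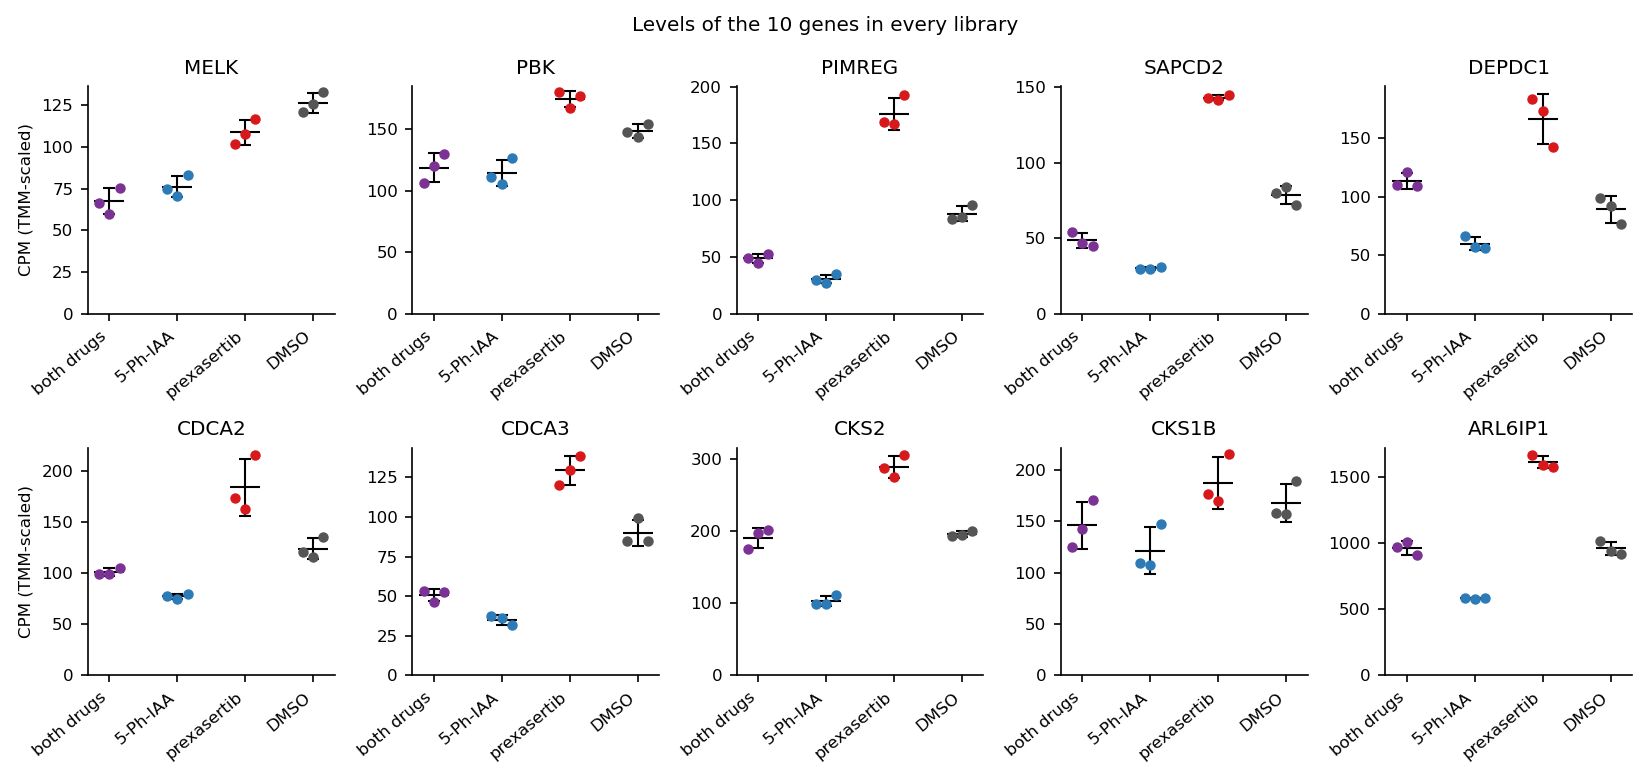
Level of each gene in every library, in CPM on the TMM-scaled library size; points are libraries, the long bar is the mean of 3 and the whiskers are ± SD. For all 10 genes the 5-Ph-IAA libraries lie below the DMSO libraries. The prexasertib libraries lie above DMSO for 8 genes, below it for MELK and overlapping it for CKS1B. How many of all genes tested separate in this way was not counted, and the 10 were chosen with results of these libraries in view.

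Neither of the 2 kinases passed the test with prexasertib alone. MELK, an AMPK-related kinase that is most abundant in dividing cells, lies at chr9:36572895-36677682. It had 66.7, 60.0 and 75.7 CPM with both drugs and 74.9, 70.6 and 83.0 CPM with 5-Ph-IAA. It had 102, 108 and 117 CPM with prexasertib and 121, 126 and 133 CPM with DMSO. The levels thus fell into an upper pair of groups without 5-Ph-IAA and a lower pair with it, and MELK had its highest levels under DMSO. With 5-Ph-IAA, MELK fell by 0.74 on the log2 scale against DMSO (log2 fold change -0.74 ± 0.093 SE, adjusted p = 0.00012) and by 0.69 with both drugs against prexasertib (-0.69 ± 0.094, adjusted p = 0.00024). Prexasertib libraries were all below DMSO libraries, at a log2 fold change of -0.22 ± 0.092, which did not pass the test (adjusted p = 0.22). With the replicate number as a block the same difference passed (adjusted p = 0.0067), as it did without the libraries numbered 3 (log2 fold change -0.23, adjusted p = 0.025). Both drugs against 5-Ph-IAA gave -0.17 ± 0.093 (adjusted p = 0.46), with overlapping libraries.

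PBK, a mitotic kinase related to the MAP kinase kinases and a substrate of CDK1, lies on chromosome 8. It had 106, 120.3 and 129.6 CPM with both drugs and 111, 106 and 127 CPM with 5-Ph-IAA. It had 179.8, 167 and 177 CPM with prexasertib and 148, 143 and 155 CPM with DMSO. The lower pair of groups overlapped each other, while the prexasertib libraries were all above the DMSO libraries. PBK fell with 5-Ph-IAA against DMSO (log2 fold change -0.38 ± 0.086, adjusted p = 0.0066), the smallest change of the 10 genes in that comparison, and with both drugs against prexasertib (-0.56 ± 0.086, adjusted p = 0.00063). The difference of prexasertib from DMSO was 0.23 ± 0.085 and did not pass the test (adjusted p = 0.16), though it passed with the replicate block (adjusted p = 0.0028) and without the libraries numbered 3 (log2 fold change 0.26, adjusted p = 0.0075). Both drugs against 5-Ph-IAA gave 0.05 ± 0.086, with a 95% interval of -0.13 to 0.24 (adjusted p = 0.85). PBK shares 10037 bases of its locus with ESCO2, and the strand setting of the counts is not given in the sources used here. ESCO2, a cohesin acetyltransferase, had 37.0, 39.8 and 48.3 CPM with both drugs, 53.8, 53.2 and 55.4 CPM with 5-Ph-IAA, 50.1, 52.1 and 50.8 CPM with prexasertib and 68.6, 56.2 and 64.8 CPM with DMSO. ESCO2 was thus lower in the prexasertib libraries than in the DMSO libraries, the opposite order to PBK. The replicate block gave a pass for that difference (-0.31 ± 0.08, adjusted p = 0.0038).

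The ratio of the 2 kinases within a library does not depend on how libraries are scaled. The log2 ratio of PBK over MELK was 0.67, 1.00 and 0.78 with both drugs and 0.56, 0.58 and 0.61 with 5-Ph-IAA. It was 0.82, 0.63 and 0.60 with prexasertib and 0.29, 0.18 and 0.22 with DMSO, so DMSO was lowest and did not overlap any other group. Averaged over the arms of the other drug, prexasertib raised the ratio by 0.34 (exact two-sided permutation p = 0.005, the smallest that 400 arrangements can give; adjusted p = 0.0075 over the 6 ratio tests). The change was 0.45 without 5-Ph-IAA and 0.23 with it. With 5-Ph-IAA the ratio rose by 0.24 (exact permutation p = 0.015, adjusted p = 0.018), by 0.35 without prexasertib and by 0.14 with it. That call was lost when same-numbered libraries were paired (exact sign-flip p adjusted to 0.062). The gene pairs of these ratios were chosen with the levels known, so the tests describe how far the groups stand apart relative to the spread within them. The absolute ratio is not read, because transcript lengths were not used.

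**Figure D3:**
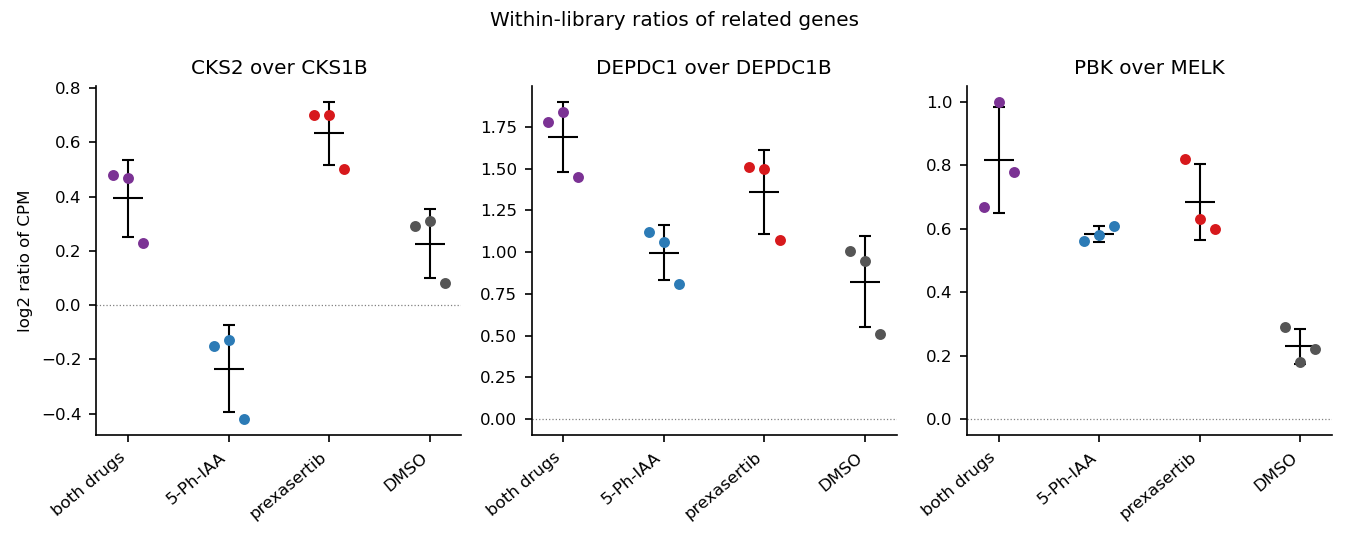
Log2 ratio of CPM within each library for 3 pairs of related genes; points are libraries, the long bar is the mean of 3 and whiskers are ± SD, and the dotted line is an equal CPM. CKS2 over CKS1B is lowest with 5-Ph-IAA (mean -0.23) and highest with prexasertib (mean 0.63), while DEPDC1 over DEPDC1B is highest with both drugs (mean 1.69).

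CKS2 and CKS1B are small proteins that bind cyclin-dependent kinases and help them act on substrates already phosphorylated. CKS1B is also the cofactor with which the ubiquitin ligase subunit SKP2 recognises the CDK inhibitor p27. Their RNAs behaved differently in these cells. CKS2, at chr9:89311195-89316703, had 175, 197 and 201 CPM with both drugs and 98.0, 98.7 and 111 CPM with 5-Ph-IAA. It had 288, 275 and 306 CPM with prexasertib and 193, 195 and 201 CPM with DMSO. The both-drug and DMSO libraries overlapped, the prexasertib libraries lay above them and the 5-Ph-IAA libraries below. CKS2 fell with 5-Ph-IAA against DMSO (log2 fold change -0.94 ± 0.075, adjusted p = 2.8e-06) and with both drugs against prexasertib (-0.60 ± 0.074, adjusted p = 0.00011). It rose with prexasertib against DMSO (0.56 ± 0.074, adjusted p = 0.00079) and with both drugs against 5-Ph-IAA (0.90 ± 0.075, adjusted p = 3.5e-05). Both drugs against DMSO gave -0.04 ± 0.074, with a 95% interval of -0.20 to 0.12 (adjusted p = 0.75). The sign of that difference turned with library size alone (0.064), with upper-quartile scaling (0.032) and without both-drug library 1 (0.019). CKS2 holds the microRNA gene MIR3153 over 82 bases, with a mean count of 4.08 per library.

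CKS1B, at chr1:154974681-154979251, had 125, 142 and 171 CPM with both drugs and 109, 108 and 148 CPM with 5-Ph-IAA. It had 177, 169.9 and 216 CPM with prexasertib and 158, 157 and 189 CPM with DMSO. In each group library 3 was the highest, and its mean deviation from the group mean was 0.23 log2 CPM, against -0.13 and -0.10 for the libraries numbered 1 and 2. CKS1B fell with 5-Ph-IAA against DMSO (log2 fold change -0.47 ± 0.15, adjusted p = 0.038). The call was lost without DMSO library 1, 2 or 3 (-0.515, -0.519 and -0.378; adjusted p = 0.06, 0.055 and 0.13). It was also lost without 5-Ph-IAA library 1 or 2 (-0.400 and -0.391; adjusted p = 0.13 and 0.14) and without both-drug library 2 (-0.472, adjusted p = 0.053). With library size alone it was -0.315 (adjusted p = 0.088), with upper-quartile scaling -0.396 (adjusted p = 0.056) and with no filter on low counts -0.477 (adjusted p = 0.058), none of which passed. No other pair of groups passed: prexasertib against DMSO gave 0.16 ± 0.15 (adjusted p = 0.68), with a 95% interval of -0.16 to 0.48. Both drugs against prexasertib gave -0.36 ± 0.15 (adjusted p = 0.11), which passed without both-drug library 3 (-0.492, adjusted p = 0.041). Both drugs against 5-Ph-IAA gave 0.27 ± 0.15 (adjusted p = 0.48), and both drugs against DMSO gave -0.20 ± 0.15 (adjusted p = 0.35). With the replicate block all 4 passed, at adjusted p = 0.042 for prexasertib against DMSO, 7.3e-07 for both drugs against prexasertib, 0.00046 for both drugs against 5-Ph-IAA and 0.0021 for both drugs against DMSO. RefSeq lists 7 pseudogene copies of CKS1B, none with a row of its own in the table, so reads from copies could be counted under the gene. CKS1B also holds the microRNA gene MIR4258 over 91 bases, with a mean count of 2.58.

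**Figure D4:**
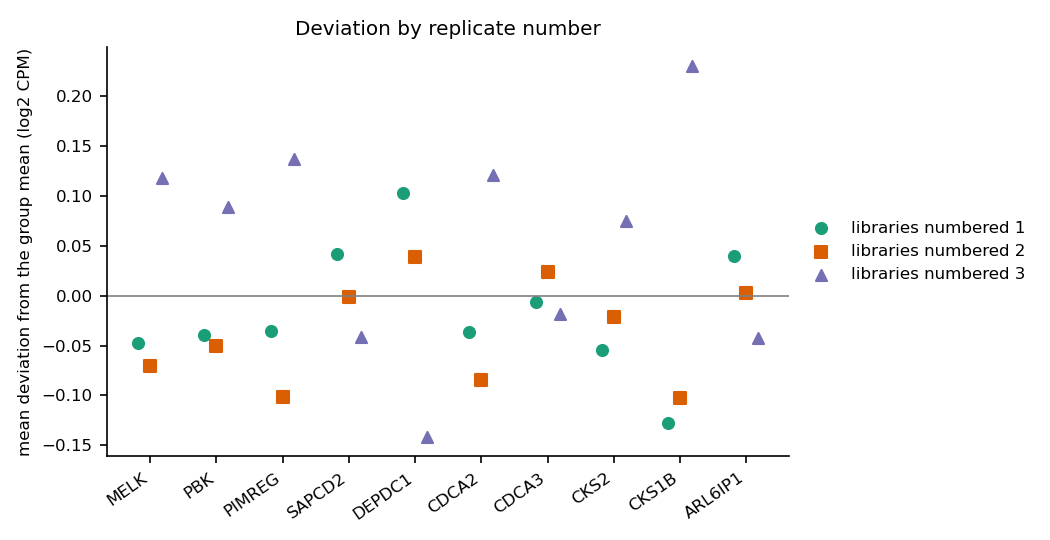
Mean deviation of the libraries with the same number from their group means, for each gene, in log2 CPM over the 4 groups. CKS1B shows the widest spread (0.231 for libraries numbered 3), and DEPDC1 runs the other way (-0.142 for libraries numbered 3).

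The log2 ratio of CKS2 over CKS1B was 0.48, 0.47 and 0.23 with both drugs and -0.15, -0.13 and -0.42 with 5-Ph-IAA. It was 0.70, 0.70 and 0.50 with prexasertib and 0.29, 0.31 and 0.08 with DMSO. The 5-Ph-IAA libraries lay below all others, and the prexasertib libraries above all DMSO libraries. With 5-Ph-IAA the ratio fell by 0.35 averaged over the arms (exact permutation p = 0.005, adjusted p = 0.0075), where the change was -0.46 without prexasertib and -0.24 with it. Prexasertib raised it by 0.52 (exact permutation p = 0.005, adjusted p = 0.0075), by 0.40 in cells without 5-Ph-IAA and 0.63 in cells given it. In both directions CKS2 thus moved further than CKS1B in these libraries, and this ratio is free of the scaling of libraries. This pair too was chosen with the levels known. Its tests describe only how far the groups stand apart relative to the spread within them.

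PIMREG, SAPCD2 and CDCA3 fell furthest with 5-Ph-IAA. PIMREG, a mitotic protein named for its binding to the clathrin assembly protein PICALM, lies at chr17:6444455-6451469. It had 49.4, 44.2 and 52.3 CPM with both drugs and 29.6, 27.2 and 34.5 CPM with 5-Ph-IAA. It had 169, 167 and 192 CPM with prexasertib and 83.4, 85.1 and 95.7 CPM with DMSO. The 4 groups did not overlap and ran, from low to high, 5-Ph-IAA, both drugs, DMSO and prexasertib. PIMREG fell with 5-Ph-IAA against DMSO (log2 fold change -1.53 ± 0.1, adjusted p = 9.5e-07) and with both drugs against prexasertib (-1.85 ± 0.1, adjusted p = 2.4e-07). In the second comparison it ranked 7 from the bottom of 14658 genes. It rose with prexasertib against DMSO (1.00 ± 0.099, adjusted p = 9e-05) and with both drugs against 5-Ph-IAA (0.68 ± 0.1, adjusted p = 0.0028). RefSeq lists 4 pseudogene copies without a row, 207 bases overlap PITPNM3, and 5977 bases overlap the long non-coding RNA LOC107985017.

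SAPCD2, a regulator of spindle orientation studied in the mouse, lies at chr9:137062127-137070557. It had 54.3, 46.5 and 45.0 CPM with both drugs and 29.6, 29.5 and 31.0 CPM with 5-Ph-IAA. It had 143, 141 and 145 CPM with prexasertib and 80.2, 84.0 and 72.2 CPM with DMSO. The groups stood in the same order as for PIMREG and did not overlap. SAPCD2 fell with 5-Ph-IAA against DMSO (log2 fold change -1.39 ± 0.086, adjusted p = 4.8e-07) and with both drugs against prexasertib (-1.56 ± 0.085, adjusted p = 2.4e-07). SAPCD2 rose with prexasertib against DMSO (0.86 ± 0.083, adjusted p = 7.6e-05) and with both drugs against 5-Ph-IAA (0.69 ± 0.086, adjusted p = 0.00061). RefSeq lists 4 pseudogene copies, none with a row.

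CDCA3, known as a trigger of mitotic entry that promotes degradation of the kinase WEE1, lies at chr12:6844798-6851286. It had 52.9, 46.3 and 52.4 CPM with both drugs and 37.2, 36.4 and 31.5 CPM with 5-Ph-IAA. It had 120.3, 130.0 and 138 CPM with prexasertib and 84.9, 99.3 and 85.1 CPM with DMSO. The order of the groups was again that of PIMREG, without overlap. CDCA3 fell with 5-Ph-IAA against DMSO (log2 fold change -1.35 ± 0.096, adjusted p = 1.2e-06) and with both drugs against prexasertib (-1.36 ± 0.095, adjusted p = 1.7e-06). CDCA3 rose with prexasertib against DMSO (0.53 ± 0.093, adjusted p = 0.0054) and with both drugs against 5-Ph-IAA (0.53 ± 0.096, adjusted p = 0.0096). Without both-drug library 1 the last call was lost (0.494, adjusted p = 0.05). CDCA3 overlaps GNB3 over 2596 bases, and GNB3 had a mean count of 13.8 per library.

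CDCA2 and DEPDC1 fell less with 5-Ph-IAA and rose with prexasertib. CDCA2, the chromatin-bound subunit of protein phosphatase 1 also called Repo-Man, which acts as chromosomes decondense after mitosis, lies on chromosome 8. It had 98.7, 99.1 and 105 CPM with both drugs and 77.0, 74.4 and 79.7 CPM with 5-Ph-IAA. It had 173, 163 and 216 CPM with prexasertib and 120.3, 115 and 135 CPM with DMSO. The 4 groups did not overlap, although prexasertib library 3 stood well above the others of its group. CDCA2 fell with 5-Ph-IAA against DMSO (log2 fold change -0.68 ± 0.098, adjusted p = 0.00033) and with both drugs against prexasertib (-0.86 ± 0.098, adjusted p = 5.7e-05). It rose with prexasertib against DMSO (0.57 ± 0.097, adjusted p = 0.0044). Both drugs against 5-Ph-IAA gave 0.39 ± 0.098 and missed the threshold (adjusted p = 0.055), with all both-drug libraries above all 5-Ph-IAA libraries. It passed in 10 of 22 alternatives, among them the replicate block (adjusted p = 4.5e-06) and the fits without DMSO library 3 (0.391, adjusted p = 0.044), prexasertib library 2 (0.391, adjusted p = 0.047) or prexasertib library 3 (0.382, adjusted p = 0.012). DESeq2 also called it (0.400, adjusted p = 0.011).

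DEPDC1, a DEP-domain protein of dividing cells that binds the repressor ZNF224, lies at chr1:68474152-68497082. It had 109.7, 122 and 109 CPM with both drugs and 66.6, 56.9 and 56.3 CPM with 5-Ph-IAA. It had 184, 174 and 142 CPM with prexasertib and 98.6, 92.1 and 76.7 CPM with DMSO. DEPDC1 was the only one of the 10 genes whose both-drug libraries all lay above the DMSO libraries. It fell with 5-Ph-IAA against DMSO (log2 fold change -0.57 ± 0.11, adjusted p = 0.003) and with both drugs against prexasertib (-0.55 ± 0.11, adjusted p = 0.0039). It rose with prexasertib against DMSO (0.90 ± 0.11, adjusted p = 0.00054) and with both drugs against 5-Ph-IAA (0.92 ± 0.11, adjusted p = 0.00059), which was the largest rise of the 10 genes in that comparison. RefSeq places an antisense RNA, DEPDC1-AS1, over 407 bases of the gene, with a mean count of 6.17 per library, and another, DEPDC1-AS2, over 4576 bases. It lists 2 pseudogene copies.

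Its paralog DEPDC1B, which also acts around mitotic entry, moved less with prexasertib. DEPDC1B had 31.9, 33.8 and 39.8 CPM with both drugs and 30.6, 27.2 and 31.9 CPM with 5-Ph-IAA. It had 64.3, 61.3 and 67.6 CPM with prexasertib and 48.9, 47.7 and 53.7 CPM with DMSO. It fell with 5-Ph-IAA against DMSO (log2 fold change -0.75 ± 0.1, adjusted p = 0.00019), and prexasertib against DMSO gave 0.36 ± 0.098 (adjusted p = 0.052), which passed with the replicate block (adjusted p = 0.00035). The log2 ratio of DEPDC1 over DEPDC1B was 1.78, 1.84 and 1.45 with both drugs and 1.12, 1.06 and 0.81 with 5-Ph-IAA. It was 1.51, 1.5 and 1.07 with prexasertib and 1.01, 0.95 and 0.51 with DMSO, and library 3 was the lowest of each group. Prexasertib raised the ratio by 0.61 averaged over the arms (exact permutation p = 0.005, adjusted p = 0.0075), by 0.54 in cells without 5-Ph-IAA and 0.69 in cells given it. The change with 5-Ph-IAA was 0.25 and did not pass (exact permutation p = 0.08, adjusted p = 0.08). With same-numbered libraries paired it did (exact sign-flip p adjusted to 0.038).

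ARL6IP1, a hairpin protein that shapes tubules of the endoplasmic reticulum, lies at chr16:18791667-18801549. It had 974, 1013 and 908 CPM with both drugs and 586, 577 and 586 CPM with 5-Ph-IAA. It had 1673, 1595 and 1583 CPM with prexasertib and 1020.0, 942 and 922 CPM with DMSO. Prexasertib libraries were highest and 5-Ph-IAA libraries lowest, with both-drug and DMSO libraries overlapping between them. ARL6IP1 fell with 5-Ph-IAA against DMSO (log2 fold change -0.72 ± 0.069, adjusted p = 1.2e-05) and with both drugs against prexasertib (-0.74 ± 0.069, adjusted p = 1.1e-05). It rose with prexasertib against DMSO (0.75 ± 0.069, adjusted p = 6.8e-05) and with both drugs against 5-Ph-IAA (0.73 ± 0.069, adjusted p = 5.6e-05). Both drugs against DMSO gave 0.01 ± 0.069, with a 95% interval of -0.14 to 0.15 (adjusted p = 0.97). The sign of that difference turned without DMSO library 2 (-0.011) or 3 (-0.027), both-drug library 1 (-0.003) or 2 (-0.033), and with no filter on low counts (-0.010). RefSeq lists 3 pseudogene copies of ARL6IP1, none with a row.

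With prexasertib present, 9 of the 10 genes fell when 5-Ph-IAA was added, the exception being CKS1B. Of all genes tested, 10.4% fell and 7.85% rose with both drugs against prexasertib, or 1524 and 1150 genes. The balance turned with library size alone (889 fell, 2569 rose) and with upper-quartile scaling (1148 fell, 1681 rose). The median log2 fold change of the 10 was -0.72, against 0.01 over all genes tested. With the replicate block all 10 fell, and 19.9% of all genes did. With 5-Ph-IAA present, 6 of the 10 rose when prexasertib was added (PIMREG, SAPCD2, DEPDC1, CDCA3, CKS2 and ARL6IP1) and none fell. Of all genes tested, 1.17% rose and 1.26% fell with both drugs against 5-Ph-IAA, or 171 and 184 genes. Library size alone gave 155 and 335. The counts became 102 and 54 without 5-Ph-IAA library 1, 111 and 56 without 5-Ph-IAA library 2, 117 and 86 without both-drug library 1 and 118 and 64 without both-drug library 2. With the replicate block 8 rose, CDCA2 and CKS1B being added, and 7.8% of all genes did. For prexasertib against DMSO the block gave 9 genes higher and MELK lower, where 8.37% of all genes rose and 9.77% fell. Without the libraries numbered 3, every edgeR call of the 10 genes made over all 12 libraries held, in these and the other pairwise comparisons.

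**Figure D5:**
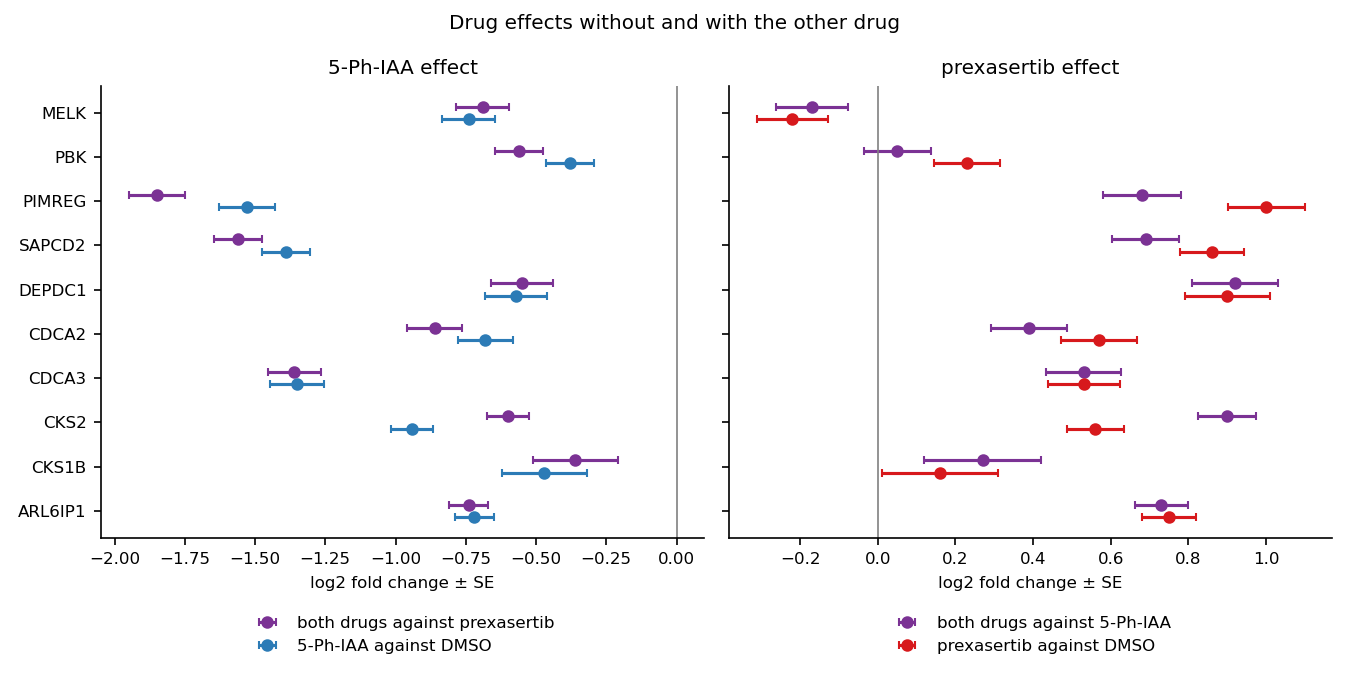
Log2 fold change ± SE of each gene for 5-Ph-IAA (left) and prexasertib (right), with the other drug present (purple) and absent (blue and red). The 5-Ph-IAA changes lie below 0 in both settings for all 10 genes; CKS2 shows -0.60 with prexasertib and -0.94 without it.

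Both drugs together left the 10 genes at different distances from DMSO. MELK had the lowest level relative to DMSO (log2 fold change -0.91 ± 0.093, adjusted p = 2.3e-05). PIMREG (-0.86 ± 0.1, adjusted p = 6.1e-05), CDCA3 (-0.83 ± 0.095, adjusted p = 4.8e-05) and SAPCD2 (-0.70 ± 0.084, adjusted p = 7.3e-05) also fell. PBK (-0.32 ± 0.086, adjusted p = 0.013) and CDCA2 (-0.29 ± 0.098, adjusted p = 0.042) fell with smaller changes. DEPDC1 alone rose (0.35 ± 0.11, adjusted p = 0.036). CKS2, CKS1B and ARL6IP1 did not pass, so 6 genes were lower and 1 was higher, where 14.2% of all genes fell and 11.8% rose, or 2077 and 1725 genes. Over all genes the balance turned with library size alone (1438 fell, 2696 rose) and with upper-quartile scaling (1628 fell, 2334 rose). With the replicate block CKS1B was added to the lower genes, where 23.5% of all genes fell and 21.2% rose. Without both-drug library 1 the count of 7 became 4: the calls of PBK (-0.251, adjusted p = 0.065), CDCA2 (-0.275, adjusted p = 0.12) and DEPDC1 (0.370, adjusted p = 0.066) were lost. Calls over all genes also became fewer without that library, with 1623 lower and 1193 higher. DEPDC1 also lost its call without DMSO library 2 (0.369, adjusted p = 0.065) or 3 (0.247, adjusted p = 0.14) and without both-drug library 2 (0.294, adjusted p = 0.13) or 3 (0.379, adjusted p = 0.052). CDCA2 also lost its call without DMSO library 1 (-0.312, adjusted p = 0.073) or 3 (-0.224, adjusted p = 0.15). The same happened without 5-Ph-IAA library 1 (-0.292, adjusted p = 0.056) or 2 (-0.292, adjusted p = 0.053) and without both-drug library 2 (-0.279, adjusted p = 0.12) or 3 (-0.314, adjusted p = 0.054). CDCA2 did not pass with library size alone (-0.185, adjusted p = 0.13), upper-quartile scaling (-0.218, adjusted p = 0.092) or limma-voom (-0.288, adjusted p = 0.05, rounded).

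Whether the prexasertib change depended on 5-Ph-IAA was asked with the interaction, the difference between the prexasertib changes with and without 5-Ph-IAA on the log2 scale. With edgeR none of the 10 genes passed, and 0% of all genes did. At an unadjusted p under 0.05 the edgeR fit gave 519 genes. Among them were CKS2, with 0.34 ± 0.1, and PIMREG, with -0.32 ± 0.14. DESeq2 called 5 genes, limma-voom 0 and edgeR on library size alone 1. With the replicate block 0.655% of all genes passed, and CKS2 was the only one of the 10, with 0.34 ± 0.076, a 95% interval of 0.18 to 0.49 and an adjusted p of 0.018. It also passed without the libraries numbered 3 (0.355, adjusted p = 0.034). Without the block the 95% interval was 0.11 to 0.56 in CKS2, -0.63 to -0.01 in PIMREG and -0.23 to 0.19 in ARL6IP1, the narrowest of the 10, and -0.34 to 0.56 in CKS1B, the widest.

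Genes that work with the 10 were examined as lists, which were drawn up with results of these data known. Of 13 genes for the MuvB core, its MYB and pocket-protein partners and FOXM1, 5 fell and none rose with 5-Ph-IAA against DMSO, where 12.2% of all genes fell and 9.65% rose. With prexasertib against DMSO 2 fell and none rose, where 2.36% of all genes rose and 2.37% fell. Their median log2 fold changes were -0.22 and 0.04. FOXM1, the forkhead activator of G2/M genes, had 188, 179 and 212 CPM with both drugs, 182, 178 and 192 CPM with 5-Ph-IAA, 256, 253 and 300.1 CPM with prexasertib and 229.5, 239.8 and 272 CPM with DMSO. It fell with 5-Ph-IAA (-0.43 ± 0.091, adjusted p = 0.0048), as did the E2F partner TFDP1 (-0.31 ± 0.072, adjusted p = 0.0082). The B-MYB gene MYBL2 had 115, 100.1 and 135 CPM with both drugs, 114, 106 and 140.2 CPM with 5-Ph-IAA, 135, 130.3 and 181 CPM with prexasertib and 141, 146 and 192 CPM with DMSO. Its difference of 5-Ph-IAA from DMSO did not pass (-0.42 ± 0.16, adjusted p = 0.092), and passed with the replicate block (adjusted p = 3.9e-08). LIN9, a MuvB core subunit, gave 0.02 ± 0.13 for 5-Ph-IAA and 0.04 ± 0.13 for prexasertib, both against DMSO (adjusted p = 0.93 and 0.94). With prexasertib the pocket protein RBL1 fell (-1.05 ± 0.078, adjusted p = 2.2e-05), and so did LIN54, the subunit that binds the CHR element (-0.60 ± 0.15, adjusted p = 0.04).

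Of 16 genes for the kinases, cyclins and ubiquitin ligase subunits with which CKS proteins work, 9 fell and none rose with 5-Ph-IAA against DMSO, where 12.2% of all genes fell and 9.65% rose. With prexasertib against DMSO 6 rose and none fell, where 2.36% of all genes rose and 2.37% fell. Under the replicate block 7 rose and 4 fell with prexasertib, where 8.37% of all genes rose and 9.77% fell. The mitotic cyclin CCNB1 averaged 241 CPM with 5-Ph-IAA and 526 CPM with DMSO (log2 fold change -1.12 ± 0.088, adjusted p = 2.4e-06), and CCNB2 averaged 97.2 and 202 CPM in the same order (-1.06 ± 0.073, adjusted p = 1.1e-06). Both rose with prexasertib: CCNB1 averaged 856 CPM against 526 CPM with DMSO (0.70 ± 0.087, adjusted p = 0.00051), and CCNB2 318 CPM against 202 CPM (0.65 ± 0.072, adjusted p = 0.00019). Of 17 paralogs and known partners of the 10 genes, 15 were tested, of which 10 fell and none rose with 5-Ph-IAA, against the same 12.2% and 9.65% of all genes. With prexasertib 4 rose and 5 fell under the replicate block. Without the block 1 rose, where 2.36% of all genes did: CDCA8, a chromosomal passenger subunit (0.62 ± 0.12, adjusted p = 0.011). Among those that fell with 5-Ph-IAA were CDCA7 (-1.32 ± 0.096, adjusted p = 1.5e-06) and MKI67, a proliferation marker that binds protein phosphatase 1 as CDCA2 does (-1.17 ± 0.1, adjusted p = 6.3e-06).

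The median changes of the 10 genes lay near those of the structural gene families with which they are usually expressed. With 5-Ph-IAA against DMSO the median log2 fold change was -0.73 in the 10 genes, -0.85 in 13 mitotic kinesins and -0.79 in 12 mitotic kinases with their activators. With prexasertib against DMSO it was 0.57, 0.57 and 0.51. Of the kinesins 10 fell with 5-Ph-IAA and 9 rose with prexasertib, and of the kinases and activators 12 fell and 9 rose. Of all genes tested, 12.2% fell with 5-Ph-IAA and 2.36% rose with prexasertib. KIF20A, a kinesin of cytokinesis, went further than any of the 10 genes in both comparisons, with -1.68 ± 0.06 for 5-Ph-IAA (adjusted p = 3.7e-09) and 1.17 ± 0.059 for prexasertib (adjusted p = 2.9e-07). No test of the difference between these lists was made.

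Across the 12 libraries the 10 genes did not follow a single pattern. The Pearson correlation of log2 CPM was highest between PIMREG and SAPCD2 (0.988) and lowest between MELK and DEPDC1 (0.221). All of these coefficients share the same 12 libraries in 4 groups and describe mostly the order of the groups. Among 10314 other genes whose log2 CPM averaged 3 or more, the nearest to PIMREG was ESPL1, the separase gene (0.993), and the nearest to SAPCD2 was SPAG5, a spindle protein gene (0.993), with NUSAP1 next (0.993). CDCA2 was nearest to CDC25C, the phosphatase that activates CDK1 (0.992), and CKS2 to CCNB1 (0.997), followed by KPNA2 (0.994). ARL6IP1 was nearest to PTTG1, the securin gene (0.998), then to KIF20A (0.987). CDCA3 was nearest to PPP2R2C (0.993) and KIF18B (0.992), and DEPDC1 to CKAP2 (0.988) and GADD45A (0.987). PBK was nearest to CDR2 (0.991) and DEPDC1B (0.978), and MELK to TUBB (0.985) and TLCD1 (0.982). CKS1B was nearest to SNHG29 (0.984) and ANAPC5 (0.984), neither of them in the lists used here. Ranked by Spearman correlation instead, 5 of the 20 nearest genes were shared.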

How the data were processed

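Per the labels' protocols, the RNA was poly(A)-selected and the libraries were directional. The authors deposited raw counts per gene, without normalization. Counting with featureCounts 2.0.8 on hg38, and limma 3.58.1, are listed per the submitters' processing notes (aligner, annotation and strand setting: not given in the sources used here). Groups follow the sample titles, because a genotype label of WT stands against the named mAID cells. The edgeR 4.0.16 quasi-likelihood fit in R 4.3.3 was robust and used filterByExpr (minimum count 10), TMM, all 12 libraries and group only. Benjamini-Hochberg adjustment ran over 14658 genes holding 99.92% of counts, with calls at an adjusted p under 0.05. SE is the size of the log2 fold change over the square root of F. The prior count was 2 for log2 CPM. The labels do not name separate cultures, so the p-values cover only the spread between these samples, which may be technical. Libraries with the same number deviated together (correlation 0.22 to 0.63 over 18 pairs), most of all those numbered 3. A separate pairing of those numbered 1, or of those numbered 2, is not shown by these correlations. Each ratio had an exact two-sided permutation test, stratified by the other drug. Named genes were the 10, the called genes of smallest adjusted p in each list, the 2 nearest genes by correlation, and DEPDC1B, MYBL2, LIN9 and FOXM1. ESCO2, TRRAP and the cell type markers were added for their bearing on results, and TUBB3, KRT7 and KRT8 by the list rule. The genes, lists and tests were chosen with earlier results of these data known. Alternatives were other scalings, filters, tools (DESeq2 1.42.0, limma-voom), the replicate block and left-out libraries. Positions, pseudogenes and promoters are RefSeq's on GRCh38.p14.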

Additional observations from a re-analysis of the deposited data

Results flagged for a closer look

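The prexasertib change of CKS2 differed between cells with and without 5-Ph-IAA when the replicate number was a block. The difference was 0.338 on the log2 scale (edgeR, adjusted p = 0.018). It was not particular to CKS2. In the same edgeR fit CCNB1 (0.42 ± 0.071, adjusted p = 0.00072) and KIF20A (0.40 ± 0.073, adjusted p = 0.0016) also passed. Over all genes tested, 55 passed with a positive and 41 with a negative difference. CKS2 rose by 0.90 with prexasertib in cells given 5-Ph-IAA, against 0.56 in cells without it. All 3 libraries with prexasertib lay above all 3 without it in both settings. Without the block the same difference had an adjusted p of 1.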

How the results depend on the processing

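The 10 genes' log2 fold changes were recomputed under other scalings, filters, tools, sample sets, the replicate block and left-out libraries. The interaction entered this tally for CKS2 and PIMREG alone. Of these values, 1082 kept their direction and side of the threshold. Another 24 passed where they had not, 26 no longer passed and 10 changed sign, for differences near 0. Library size alone moved the median of all genes to 0.164 for 5-Ph-IAA against DMSO, where TMM gave 0.006, and CKS1B then lost its call there (-0.315, adjusted p = 0.088). The changes of sign were CKS2 with both drugs against DMSO (0.064 with library size alone, 0.032 with upper-quartile scaling, -0.071 to 0.019 over left-out libraries), ARL6IP1 in the same comparison (-0.010 with no filter, -0.033 to 0.053 over left-out libraries) and PBK with both drugs against 5-Ph-IAA (-0.018 to 0.133). Of the 10 genes, the interaction called 1, CKS2, with the replicate block, and 0 to 1 over left-out libraries. For both drugs against DMSO left-out libraries gave 4 to 8 called of the 10 genes, and 2735 to 5521 called over all genes tested. With same-numbered libraries paired in the replicate block, DEPDC1 over DEPDC1B with 5-Ph-IAA passed at the same 0.252, and PBK over MELK with 5-Ph-IAA no longer passed at 0.245. Over left-out libraries the 5-Ph-IAA ratio changes ran from -0.385 to -0.303 for CKS2 over CKS1B and from 0.198 to 0.281 for PBK over MELK. The prexasertib ratio changes ran from 0.469 to 0.556 for CKS2 over CKS1B, 0.537 to 0.687 for DEPDC1 over DEPDC1B and 0.295 to 0.378 for PBK over MELK. Without all libraries numbered 3, 2 per group are too few arrangements for a ratio to pass. For the 10 genes, the block changed no call beyond those given with each gene. The part of sequencing depth in the results was not tested. The cause of these changes was not tested.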

Other observations

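Families related to the 10 genes by structure or site were examined as lists drawn up with results of these data known. Of all genes tested, 9.65% rose and 12.2% fell with 5-Ph-IAA against DMSO, and 2.36% rose and 2.37% fell with prexasertib against DMSO. Under the replicate block the shares were 19% and 23.6% with 5-Ph-IAA, and 8.37% and 9.77% with prexasertib. Of 14 AMPK-related kinases, the family of MELK, 13 were tested. With 5-Ph-IAA against DMSO 4 rose and 1 fell, with a median log2 fold change of 0.13. BRSK1 rose (0.73 ± 0.13, adjusted p = 0.0017), and so did MARK4, a microtubule affinity kinase (0.59 ± 0.1, adjusted p = 0.0013), while NUAK2 fell (-0.47 ± 0.095, adjusted p = 0.0037). With prexasertib NUAK1 fell (-0.48 ± 0.099, adjusted p = 0.015), and no other member passed. The block gave 3 of this list that fell with prexasertib and none that rose. Of 7 MAP kinase kinases, to which PBK is related, only MAP2K7 rose with 5-Ph-IAA (0.30 ± 0.097, adjusted p = 0.04), and none passed with prexasertib. Under the block 2 rose with 5-Ph-IAA and 1 fell with prexasertib.

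Of 18 genes that shape the endoplasmic reticulum or act with ARL6IP1, 17 were tested. With 5-Ph-IAA against DMSO 6 fell and 1 rose, with a median of -0.20, where 12.2% of all genes fell and 9.65% rose. Under the block 9 fell and 4 rose, where 23.6% of all genes fell and 19% rose. Without it, the one that rose was ARL6, the small GTPase for which ARL6IP1 is named, which averaged 20.2 CPM with 5-Ph-IAA and 10.1 CPM with DMSO (1.00 ± 0.14, adjusted p = 0.00027). REEP4, which clears endoplasmic reticulum from mitotic chromatin, moved in the directions of ARL6IP1. It fell with 5-Ph-IAA (-0.37 ± 0.071, adjusted p = 0.0027) and was the only gene of this list that rose with prexasertib (0.68 ± 0.071, adjusted p = 0.00013). All p-values here come from the edgeR fit.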
